A study of Mus musculus with 6 samples.

Results

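Follicular-like regulatory T (Treg) cells were studied across a single-cell experiment on splenic Treg cells of the mouse. They were chosen by detection in the table of unique molecular identifiers (UMIs, the counted RNA molecules), as cells with a UMI each of at least 2 of the 5 genes Cxcr5, Pdcd1, Tox2, Angptl2 and Sostdc1. Such cells also had to have 200 or more genes, under 10% mitochondrial UMIs and no UMI of the B cell gene Cd79a or the myeloid gene Lyz2. Of 10685 cells in the table, 10162 passed the limits, and 230 of these were follicular-like. A further 1830 cells had exactly 1 of the genes and 8102 had none.

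The cells were EGFP-positive Treg cells sorted by FACS after enrichment of CD4 T cells from spleen, and were profiled with the 10x Chromium 3′ chemistry (v2). Both genotypes were C57BL/6, received tamoxifen and carried Foxp3EGFP-Cre-ERT2, in which the Foxp3 gene drives EGFP and an inducible Cre. They were 18 to 21 weeks old. The 3 cKO samples were Bach2fl/fl Foxp3EGFP-Cre-ERT2 and the 3 WT samples Bach2+/+ Foxp3EGFP-Cre-ERT2, so that Cre can act on loxP-flanked Bach2 only in cells that express Foxp3, and the controls carried the same Cre. Bach2 is a transcriptional repressor of lymphocytes. The barcodes carry suffixes 1 to 6, which define 6 sets, but no name tied a set to a sample. The genotypes were therefore not compared, and every value below mixes both.

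Follicular regulatory T (Tfr) cells are Foxp3-expressing cells that enter B cell follicles and restrain germinal centre reactions. They share surface receptors and transcription factors with the follicular helper T (Tfh) cells that they oppose: CXCR5 guides both along CXCL13 into the follicle, PD-1 dampens their receptor signalling, and Bcl6, Maf and Ascl2 belong to the follicular programme. In entering follicles, T cells lose Klf2 and its targets, the receptors that hold lymphocytes in circulation and in the T cell zone.

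The 6 sets held 1641 to 1902 cells and 3998172 to 4786590 UMIs. Follicular-like cells summed to 753369 UMIs, with a median of 2465 per cell and a range of 750 to 17736. Each was matched to the 3 nearest cells by UMIs in its own set that had none of the defining genes, giving 690 comparison cells with 2104054 UMIs and a median of 2463.5. At this like median depth, the deepest comparison cell having 13132 UMIs, the follicular-like cells had more genes per cell, a median of 1114 against 994. Their ribosomal protein genes took 31.9% of UMIs against 36.6%, and both differences had the same direction in 6 of 6 sets. The part of these differences in the results below was not tested, beyond the calls given below without ribosomal and mitochondrial genes in the totals. Of 63 barcodes found in more than 1 set, 4 belonged to follicular-like cells, and 0 were shared by a pair of them.

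The defining genes are given as a description, since they chose the cells. Pdcd1 (chromosome 1, 94038305 to 94052553), which encodes PD-1, was the most often detected, in 1410 of the passing cells (13.9%) and in 203 of the 230 follicular-like cells. Tox2 (chromosome 2, 163203125 to 163324170), an HMG-box factor of the Tox family, was found in 360 cells and in 121 follicular-like ones. Cxcr5 (chromosome 9, 44511787 to 44561877) was found in 287 cells, 63 of them follicular-like. Angptl2 (chromosome 2, 33216069 to 33247717), a secreted angiopoietin-like protein, was found in 170 and 63. Sostdc1 (chromosome 12, 36314139 to 36318452), a secreted antagonist of BMP and Wnt signals, was the rarest, in 100 cells, of which 47 were follicular-like. All 5 are protein-coding genes, with positions from GENCODE M21 on mm10. Most members were therefore Pdcd1 cells with a second gene, and Cxcr5 itself was seen in 27.4% of them.

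Just inside the limit of 2 genes lay 197 cells with exactly 2, and just outside it the 1830 cells with exactly 1. More genes were rarer: 3 were found in 29 cells and 4 in 4, and no cell had all 5. If the genes had been placed independently among cells of like depth in the same set, 156 cells with exactly 2 and 6.20 cells with 3 or more would have been counted, against 197 and 33. As a ratio, the pairs that exceeded their count under independent placement furthest were Tox2 with Sostdc1, in 17 cells against 3.94, and Angptl2 with Sostdc1, in 6 against 1.75. Pdcd1 with Tox2, the most common pair, was found in 104 cells against 56.7. Cxcr5 with Pdcd1, the pair used to sort Tfr cells, was found in 51 cells against 42.5. The excess over independent placement was 1.26-fold for cells with exactly 2 genes and 5.32-fold for those with 3 or more.

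Free RNA can place a UMI in a cell that does not express the gene. Among 80 cells with 3 or more Cd79a UMIs (median 1940.5 UMIs), Pdcd1 was found in 10.0% (exact 95% interval 4.42 to 18.8) against 13.9% of passing cells (median 2082.5 UMIs). Tox2 was found in 1.25% of them, and Angptl2 and Sostdc1 in 0 of 80. A count of 0 allows a share of up to 3.75% when set at 3 counts, and the exact 95% interval reaches 4.51%. Cxcr5 was found in 26.3%, and is a receptor of B cells themselves. The interval for Pdcd1 in these cells includes its share in passing cells, and Pdcd1 is 1 of the detected genes in 88.3% of the follicular-like cells.

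Follicular-like cells made up 2.26% of passing cells (exact 95% interval 1.98 to 2.57). The share was 1.46% in set 2, with 25 cells, and 2.17%, 2.22%, 2.36%, 2.66% and 2.69% in sets 6, 4, 3, 1 and 5, with 34, 37, 42, 47 and 45 cells. The interval of the lowest set, 0.949 to 2.15, overlapped that of the highest, 1.97 to 3.58. Since 2 detections need depth, each cell was also thinned to 1000 UMIs, leaving out 303 shallower cells, 2 of them follicular-like. The share was then 84 of 9859 cells, or 0.852% (0.680 to 1.05), and ran from 0.672 to 0.978% over the sets. All intervals here and below cover counting error only.

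**Figure D1:**
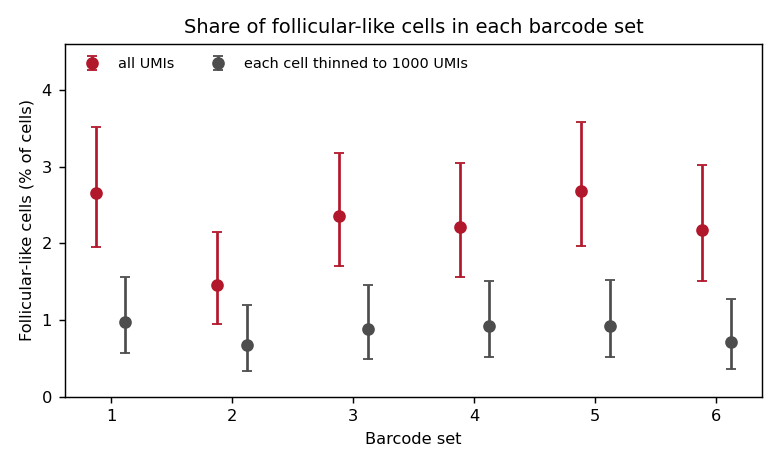
Share of passing cells that were follicular-like (y axis, percent) in each barcode set (x axis). Points are shares with exact 95% binomial intervals, from all UMIs (red) and from cells thinned to 1000 UMIs (grey). Set 2 is lowest under both, and the intervals of all sets overlap.

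Genes were then compared between the follicular-like and the matched cells by pooled UMIs, scaled to 1000000 UMIs per group (CPM). A gene is called higher or lower where its pooled CPM differed by 1.5-fold or more and all 6 sets had the same sign. Among 7395 genes with 200 or more UMIs, the defining genes left out, 183 were higher (2.47%) and 122 lower (1.65%). The median gene lay 0.13 higher on the log2 scale in follicular-like cells, beside their lower ribosomal share. Relative to that median gene, 118 genes were higher (1.6%) and 187 lower (2.53%), and with ribosomal and mitochondrial genes left out of the totals 128 were higher and 173 lower. Cells are not replicates and the sets have no known genotype, so no p-value is given. Lower calls rest on few molecules: 89 of the 122 genes had under 20 UMIs in the follicular-like cells, and 78 had an interval that excluded 0. Of the 183 higher genes, 162 did.

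Several genes of the follicular T cell programme, none of them used to choose the cells, were higher. The list of this programme and the lists below were chosen with earlier results of these data known. Of 30 listed genes, 19 had enough UMIs, and 7 of these were higher (Maf, Batf, Tox, Tbc1d4, Nfatc1, Cd200 and Sh2d1a) and 0 lower. Over all tested genes 2.47% were higher and 1.65% lower. The list's median log2 ratio was 0.69 against 0.13 over all tested genes, and 17 of the 19 ratios were above 0. The summed level of the list was 2894 CPM in follicular-like cells and 1685 in matched cells. It ran from 2576 to 3361 over the sets against 1456 to 1841, with no overlap. Relative to the median gene, 5 of the 7 passed the rule. In the 58 cells that had 2 or more of the defining genes other than Pdcd1, 3 genes of the list were higher. In that setting 80 of all 7395 tested genes were higher.

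The transcription factors of the programme came first. Maf, which drives interleukin-4 and interleukin-21 in follicular T cells, had 223 CPM in the lowest set, 234 at the median and 251 in the highest, against 45.5, 96.4 and 112 in matched cells. Every follicular-like value lay above every matched one, and the pooled log2 ratio was 1.42 (95% interval 1.11 to 1.72). A Maf UMI was found in 40.4% of follicular-like and 18.4% of matched cells, against 7.5% of the cells with Cd79a UMIs. Batf, an AP-1 family factor, had 175, 254 and 408 CPM against 88.2, 99.9 and 152, with a log2 ratio of 1.35 (1.07 to 1.63). Tox, a relative of the defining gene Tox2, had 220, 304 and 412 CPM against 114, 122 and 169, with a log2 ratio of 1.27 (1.01 to 1.53). Both groups were separate for these factors also. Nfatc1, a calcineurin-dependent factor, had 84.9, 117 and 162 CPM against 40.4, 61.2 and 88.4, where the ranges overlapped, with a log2 ratio of 0.89 (0.49 to 1.28).

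Bcl6, Ascl2 and Irf4, also factors of the programme list, were too rare for the UMI limit and are given as counts. Bcl6, the repressor on which follicular T cells depend, had 8 UMIs in 8 follicular-like cells and 6 UMIs in 6 matched cells, or 10.6 against 2.85 CPM, with a log2 ratio of 1.90 (0.18 to 3.70) and higher values in 4 of 6 sets. Ascl2, a bHLH factor that induces Cxcr5, had 15 UMIs in 11 cells against 4 UMIs in 4 cells. That is 19.9 against 1.90 CPM, a log2 ratio of 3.39 (1.74 to 5.44), with higher values in 5 of 6 sets. It was found in 0 of the 80 cells with Cd79a UMIs. Irf4, a factor induced by T cell receptor signals, had 9 UMIs against 8, a log2 ratio of 1.65 (0.11 to 3.23). These intervals lay above 0, but none of the 3 genes had the same direction in all sets.

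Cebpa was the listed gene with the largest ratio. It encodes the bZIP factor C/EBPα, best known from myeloid cells, and lies on chromosome 7 at 35119293 to 35121928. It had 42 UMIs in 26 follicular-like cells and 5 UMIs in 2 matched cells, or 55.7 against 2.38 CPM, a log2 ratio of 4.55 (3.22 to 6.25). The sets gave 19.6, 47.6 and 197 CPM at the lowest, median and highest, against 0, 0 and 13.0, without overlap. At a limit of 50 UMIs it passed the rule with 195 other genes of 9999 (1.96%). Its size depended on the cells compared. Against the 1 nearest cell each the log2 ratio was 3.03, against all cells with no defining gene 3.73, against cells with exactly 1 defining gene 2.57, and with matching on resting genes 2.70. Without the deepest 2% of cells and those with a UMI of another lineage's gene it was 2.96. It was found in 1 of 80 cells with Cd79a UMIs, 2 of 17 with Lyz2 UMIs (median 4176 UMIs) and 1.21% of passing cells.

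Surface receptors and signalling proteins of follicular T cells had smaller ratios. Tbc1d4, a Rab GTPase-activating protein that controls glucose transporter traffic, had 172, 262 and 357 CPM in the lowest, median and highest set, against 80.8, 124 and 144, again without overlap, and a log2 ratio of 1.13 (0.86 to 1.40). Sh2d1a, which encodes the SLAM adaptor SAP that T cells need to bind B cells stably, had 251, 316 and 382 CPM against 175, 204 and 237. Its groups did not overlap, and the log2 ratio was 0.59 (0.35 to 0.82). Cd200, an inhibitory ligand common on Tfh cells, had 111, 200.3 and 257 CPM against 88.6, 107 and 167, which overlapped, and a log2 ratio of 0.69 (0.38 to 1.0). Cd200 and Sh2d1a are the pair that fell short of the rule relative to the median gene.

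Icos, the costimulatory receptor required for follicular T cells, did not pass the rule: it had 165 against 95.1 CPM, a log2 ratio of 0.79 (0.46 to 1.12), with 5 of 6 sets higher. The inhibitory receptors Tigit, at a log2 ratio of 1.01 (0.39 to 1.61), and Btla, at 0.80 (0.13 to 1.45), missed it in 1 and 2 sets. Cd40lg, the ligand through which T cells help B cells, was at 0.88 (0.18 to 1.57) with 5 of 6 sets higher. The SLAM receptors that signal through SAP lay near the median gene, with log2 ratios of 0.25 for Slamf6, 0.25 for Ly9, 0.20 for Slamf1 and -0.17 for Cd84. Cytokines were scarce. Il4 had 11 UMIs in 7 follicular-like cells against 3 UMIs, Il21 2 UMIs against 0, and Il10 6 UMIs against 0. Of the 11 Il4 UMIs, 9 lay in the 33 cells with 3 or more defining genes. Matched cells with exactly 1 defining gene had Il4 at 8.47 CPM and Il10 at 5.17, against 14.6 and 7.96 in follicular-like cells.

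**Figure D2:**
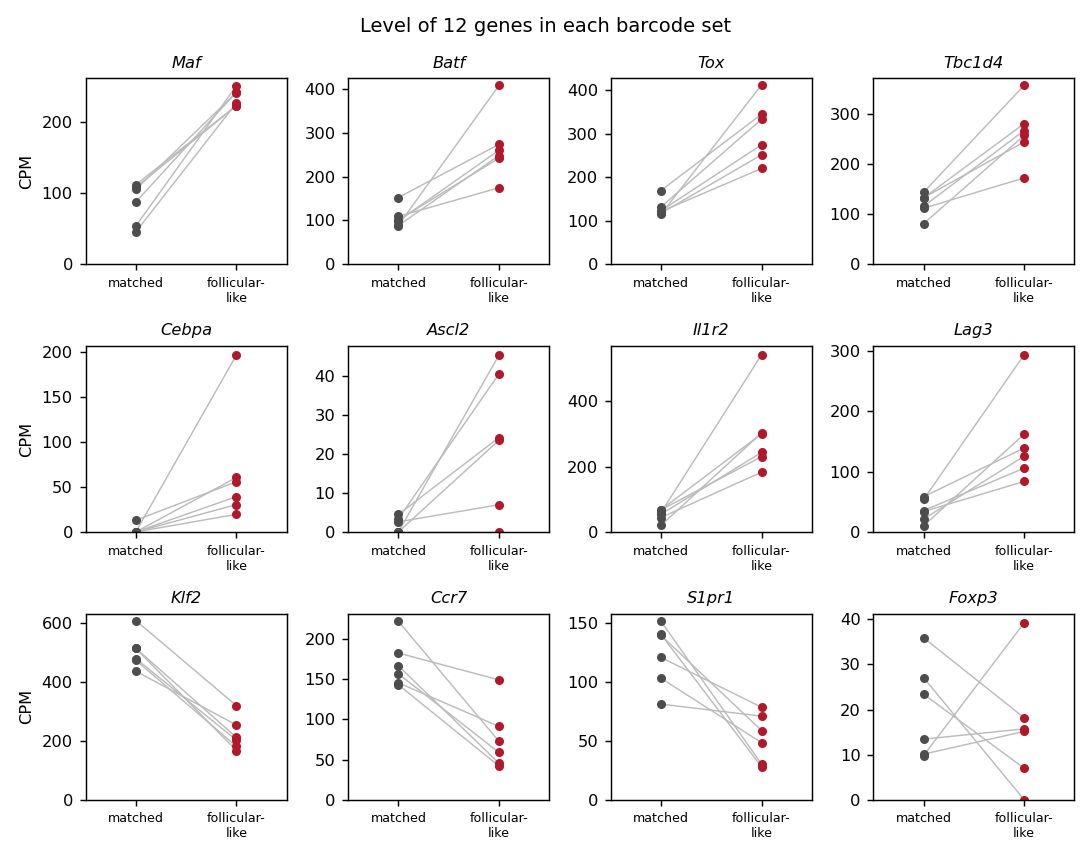
Level (y axis, CPM) of 12 genes in the 6 barcode sets, in matched cells with no defining gene (grey) and follicular-like cells (red); lines join the same set. Maf, Batf, Tox, Tbc1d4, Cebpa, Il1r2 and Lag3 lie higher and Klf2 and S1pr1 lower in every set without overlap of the groups, Ccr7 is lower in every set with overlap, and Foxp3 goes both ways.

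Genes that oppose the follicular programme or are lost with it, among them receptors for homing and egress, were lower in several cases. Of 18 tested, 6 were lower, among them Klf2, S1pr1, Ccr7, Selplg and Il7r, and 1 was higher (Stat5a), with a median log2 ratio of -0.12. Over all tested genes 1.65% were lower and 2.47% higher, with a median of 0.13. Klf2, the quiescence factor that activates S1pr1, had 168, 207 and 320.2 CPM in the lowest, median and highest set against 438, 498 and 610.0. No value of the groups overlapped, and the log2 ratio was -1.14 (-1.38 to -0.91). Its target S1pr1, the receptor for egress into blood, was lower too, with 27.9, 53.6 and 78.5 CPM in the lowest, median and highest set against 81.2, 130.2 and 152. Pooled, S1pr1 had 53.1 against 122 CPM and a ratio of -1.20 (-1.72 to -0.71). Ccr7, which holds T cells in the T cell zone, had 77.0 against 172 CPM and a ratio of -1.16 (-1.59 to -0.76).

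Selplg, the selectin ligand PSGL-1 that is reduced on Tfh cells, was lower by a smaller step, with 256 against 384 CPM and a log2 ratio of -0.59 (-0.82 to -0.36). Stat5a, an effector of the interleukin-2 signal that opposes Bcl6, was higher, with 50.4 against 28.0 CPM and a log2 ratio of 0.85 (0.22 to 1.46), a call that was lost in 10 other settings. The other opposing regulators did not pass the rule. Prdm1, which encodes the Bcl6 antagonist Blimp-1, had 13 against 22 UMIs and a log2 ratio of 0.72 (-0.39 to 1.78). Il2ra, the high-affinity interleukin-2 receptor chain that Tfr cells can lose, had 77.0 against 97.9 CPM and a ratio of -0.35 (-0.79 to 0.08), with a lower value in 5 of 6 sets.

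The list of resting lymphoid T cell genes shares Klf2, S1pr1, Ccr7, Il7r and others with the preceding one, and had 9 of 18 tested genes lower, 0 higher and a lower median log2 ratio of -1.0. Over all tested genes 1.65% were lower and 2.47% higher, with a median of 0.13. The summed level of the resting list was 1007 CPM against 1836, and the sets ran from 810 to 1194 against 1644 to 2152. Beyond the shared genes, Ly6c1, a GPI-anchored surface antigen, had 4 UMIs against 94 and a log2 ratio of -3.07 (-4.98 to -1.67). Dapl1 had 4 UMIs against 60 (-2.43, -4.35 to -0.99), Igfbp4 had 16 against 172 (-1.94, -2.78 to -1.20), and Actn1 had 24 against 121 (-0.85, -1.55 to -0.21). Bach2, the factor deleted in the cKO animals, belongs to this list and did not pass the rule, with 26.5 against 30.9 CPM and a log2 ratio of -0.22 (-1.02 to 0.52). Where comparison cells were matched on their share of resting genes as well as on UMIs, 5 genes of the follicular programme were higher. In that setting 150 of all 7388 tested genes were higher.

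Treg identity genes were present. A Foxp3 or Ikzf2 UMI was found in 216 of the 230 follicular-like cells. Foxp3 itself was weakly captured, with 13 UMIs in 12 follicular-like cells and 44 in 41 matched cells, and the log2 ratio of -0.28 (-1.29 to 0.64) could not be told from 0 at this depth. Ikzf2, which encodes the Treg factor Helios, was higher: 1170 CPM in the lowest set, 1225 at the median and 1362 in the highest, against 621, 790.4 and 970.2. The groups did not overlap, and the log2 ratio was 0.59 (0.48 to 0.71). Relative to the median gene it was 0.46, under 1.5-fold. An Ikzf2 UMI was found in 93.0% of follicular-like and 78.1% of matched cells, and in 36.3% of the cells with Cd79a UMIs.

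Of 18 tested Treg identity genes, 4 were higher and 0 lower, with a median log2 ratio of 0.31, beside 2.47% higher, 1.65% lower and a median of 0.13 over all tested genes. Relative to the median gene 3 were higher, and with cells of exactly 1 defining gene as the comparison 1 was. Besides Ikzf2 these were Itgb8, whose integrin activates latent TGF-β, with a ratio of 1.90 (1.14 to 2.67), Entpd1, the ectoenzyme CD39, with 1.48 (0.48 to 2.48), and Tnfrsf4, the costimulatory receptor OX40, with 0.79 (0.65 to 0.92). Tnfrsf18 (GITR) and Izumo1r (folate receptor 4) differed the same way in all sets by under 1.5-fold, with ratios of 0.47 and 0.46. Genes of activated or central Treg cells did not pass: Ctla4 had a ratio of 0.20 (-0.19 to 0.57), Lrrc32 -0.42 (-1.09 to 0.20) and Gpr83 -0.77 (-1.52 to -0.08). Among 22 tested tissue effector Treg genes, 0 were higher and 1 was lower, Crip1, with 875 against 1700 CPM. The ratios of this list went both ways, 10 above 0 and 12 below, with a median of -0.05. Ccr2, a chemokine receptor of that programme, had 7 UMIs against 76 and was higher in 1 of 6 sets.

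**Figure D3:**
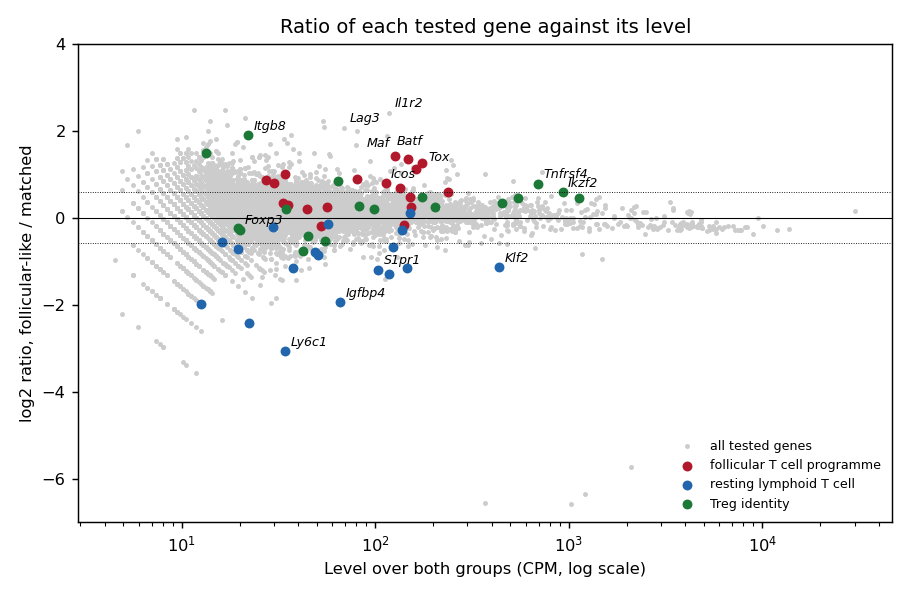
Log2 ratio of follicular-like to matched cells (y axis) against the level over both groups (x axis, CPM, log scale) for 7394 genes, with 1 gene at 0 UMIs in follicular-like cells not drawn; dotted lines mark 1.5-fold. Follicular programme genes (red) lie mostly above 0, resting genes (blue) mostly below, and the 4 points under -5 are haemoglobin genes.

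Among called genes with at least 100 UMIs in follicular-like cells, the largest ratio was that of Il1r2, the decoy receptor that binds interleukin-1 without signalling (chromosome 1, 40074079 to 40125231). It had 222 UMIs in 66 follicular-like cells and 116 UMIs in 55 matched cells. The sets ran from 183 CPM through a median of 272 to 542, against 20.2, 56.6 and 67.6, without overlap, and the log2 ratio was 2.42 (2.09 to 2.75). A single cell held at most 20 of its UMIs. Any Il1r2 UMI was found in 1 of 80 cells with Cd79a UMIs and in 6.69% of passing cells. It was also found in 3 of 17 cells with Lyz2 UMIs (median 4176 UMIs). The other members of the interleukin-1 receptor family did not follow: Il18r1 had a log2 ratio of -0.16 (-0.71 to 0.36) and Il1rl1, the receptor of interleukin-33, had 5 UMIs against 37. Among 3 tested genes of this family, Il1r2 was thus the 1 called, beside 2.47% higher over all tested genes.

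Lag3, an inhibitory receptor for MHC class II, had 83.8, 132 and 294 CPM in the lowest, median and highest set against 10.2, 34.6 and 58.3, and a log2 ratio of 2.07 (1.65 to 2.50). Marcksl1, an actin-binding protein, had 83.8, 127 and 176 CPM against 10.1, 25 and 40.4, with a ratio of 2.23 (1.75 to 2.73). Both were separate from the matched cells. Stx11, a syntaxin of granule secretion, had a ratio of 2.08, with 125 against 29.5 CPM, and Eea1, an early endosome tether, 2.0, with 181 against 45.2 CPM. Bcl2a1d, an anti-apoptotic Bcl-2 relative, had 1.89 with 251 against 67.5 CPM. Its near-identical paralog Bcl2a1b had 1.32, and how reads were divided between them is uncertain. Lag3 was found in 3 and Stx11 in 6 of the 17 cells with Lyz2 UMIs (median 4176 UMIs). Each was found in 1 of 80 cells with Cd79a UMIs, and in 7.35% and 7.54% of passing cells.

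The rest of the 12 highest genes had fewer molecules. Slc7a10, a neutral amino acid transporter, had 39 UMIs against 22 and a log2 ratio of 2.31 (1.52 to 3.13). Twsg1, a modulator of BMP signals like the defining gene Sostdc1, had 22 UMIs against 11 (2.48), Prelid2 had 25 against 15 (2.22), and the zinc finger factor Tshz2 had 30 against 19 (2.14). Nfil3, a bZIP factor of lymphocytes, had 23 against 16 (2.01). Among the 12 lowest, Ly6c1, Dapl1 and Ifit3 belong to the lists. The others, such as Arrdc3, Gm13546, Pik3r5, Gm4951, Mars2, Mterf4, Guf1 and Sidt1, had 1 or 2 UMIs in follicular-like cells, so their ratios carry little weight.

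Inhibitory receptors had the highest list median, in a list that shares genes such as Tigit and Btla with the follicular programme. Of 9 tested, 2 were higher, Lag3 and Lilrb4a, and 0 lower, with a median log2 ratio of 0.80 and 8 of the 9 ratios above 0, beside 2.47% higher and a median of 0.13 over all tested genes. Lilrb4a had 51.8 against 19.5 CPM and a ratio of 1.41 (0.74 to 2.08). Klrg1 had a ratio of 1.48 but was higher in 3 of 6 sets, and 11 of its 44 UMIs came from a single cell. Genes that respond to the T cell receptor gave 4 higher and 0 lower of 19 tested, with a median of 0.45. With 1 nearest comparison cell 2 were higher, and against cells with exactly 1 defining gene 1 was. The 4 were Egr2, a zinc finger factor of T cell anergy and of follicular cells, with a ratio of 1.32 (0.48 to 2.15), the NF-κB subunit gene Nfkb2 with 1.19 (0.69 to 1.67), the costimulatory receptor Tnfrsf9 (4-1BB) with 1.14 (0.83 to 1.45), and Cd83 with 1.08 (0.77 to 1.40). The immediate early gene Jun lay on the other side, with 61.1 against 117 CPM and a lower value in 5 of 6 sets.

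Calcineurin and NFAT signalling genes were mixed. Of 9 tested, 2 were higher, Orai1, the pore of the store-operated calcium channel, with 167 against 67.5 CPM and a log2 ratio of 1.31 (0.95 to 1.67), and Nfatc1. Ppp3ca, a catalytic subunit of calcineurin, was lower, with 15 UMIs against 80, a call lost with 1 nearest comparison cell. In glycolysis, 2 of 13 tested genes were higher, Tpi1 with a ratio of 0.83 (0.45 to 1.20) and Pgam1 with 0.63 (0.22 to 1.02), and 1 of these remained relative to the median gene. Ldha lay at 0.05. Beside both lists, 2.47% of all tested genes were higher and 1.65% lower.

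The interferon list had 3 of 12 tested genes lower (Ifit3, Ifit1 and Irf7) and 0 higher, with a median of -0.26, beside 1.65% lower over all tested genes, yet its summed level was 3085 against 2946 CPM. With 1 nearest comparison cell 1 was lower. Ifit1 had 13 UMIs against 98, a log2 ratio of -1.43 (-2.39 to -0.59). Cell cycle genes had 0 called of 12 in either direction, with a median of 0.27, and their summed level was higher in 3 of 6 sets. Few cells carried them: Top2a had 60 UMIs in 10 follicular-like cells and up to 14 in a single cell. Among immediate early and stress genes, 1 of 9 was lower, Hspa1a, with 5 UMIs against 33 and an interval of -2.95 to 0.13. Of the 3 tested conventional cytokine genes, 0 were called in either direction.

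Markers of other cells were checked beside these results. Of 5 tested B cell markers 0 were called, and the summed level was 457 CPM (233 to 621 over the sets) against 280.4 (227 to 338). Most of it was Cd74, which activated T cells can also express, with 368 against 197 CPM. Ebf1 was at 0 in follicular-like cells, and Cd79b had 45.1 against 37.5 CPM. Of 3 tested myeloid markers 0 were called, with 466 CPM (391 to 590.4 over the sets) against 446 (379 to 536), and C1qb and Itgam were at 0. The CD8, NK and innate-like list had 1 tested gene, not called, with 21.2 CPM (6.53 to 50.7) against 23.3 (7.80 to 48.3), and Cd8a and Prf1 at 0. Erythroid markers had 92.9 CPM (0 to 294) against 6358 (0 to 32665), because 2 comparison cells of set 5 had over 50% haemoglobin UMIs. Without such cells 174 genes were higher and 126 lower. Of the 230 cells, 64 had a UMI of another lineage's gene and 32 were in the deepest 2% of cells. Without both, 152 cells remained and 156 genes were higher and 152 lower.

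Levels were next followed from cells with none of the defining genes through matched cells with exactly 1 and follicular-like cells with exactly 2 (197 cells, median 2277 UMIs) to those with 3 or more (33 cells, median 3169 UMIs). Values are CPM in that order. Cebpa was at 2.38, 9.41, 29.2 and 175, and in the last group at an interval of 112 to 261 that lay above that of the third, 17.3 to 46.1. Ascl2 was at 1.90, 1.41, 9.73 and 65.7, with 9 UMIs in 6 of the 33 cells of the last group. Bcl6 was at 2.85, 3.29, 6.49 and 29.2, with 4 UMIs in the last group and overlapping intervals of 1.77 to 16.6 and 7.96 to 74.8 in the last pair. Irf4 was at 3.80, 13.6, 14.6 and 0 (up to 26.9). Cebpa and Ascl2 thus had their highest levels in the cells with 3 or more defining genes, and Irf4 had 0 UMIs there.

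Common genes had more even steps. Maf was at 88.4, 159, 222 and 299.5, Batf at 105, 173, 248 and 351, and Lag3 at 37.5, 76.7, 143 and 226. Il1r2 was at 55.1, 134, 285 and 336, where the intervals of the last pair, 245 to 331 and 246 to 448, overlapped. Stx11 was at 29.5, 46.6, 92.5 and 270.3, with the largest step at the end.

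Klf2 descended through 509, 326, 258 and 110, and Tsc22d3, which encodes the glucocorticoid-induced leucine zipper GILZ, through 135, 99.3, 60.0 and 7.30, with 1 UMI in the last group. Selplg was at 384, 278, 282 and 139. Ikzf2 did not follow this order, with 821, 1033, 1299 and 972, nor did Icos, with 95.1, 137, 174 and 124. Foxp3 stayed between 16.2 and 24.0 in all groups, within its intervals.

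**Figure D4:**
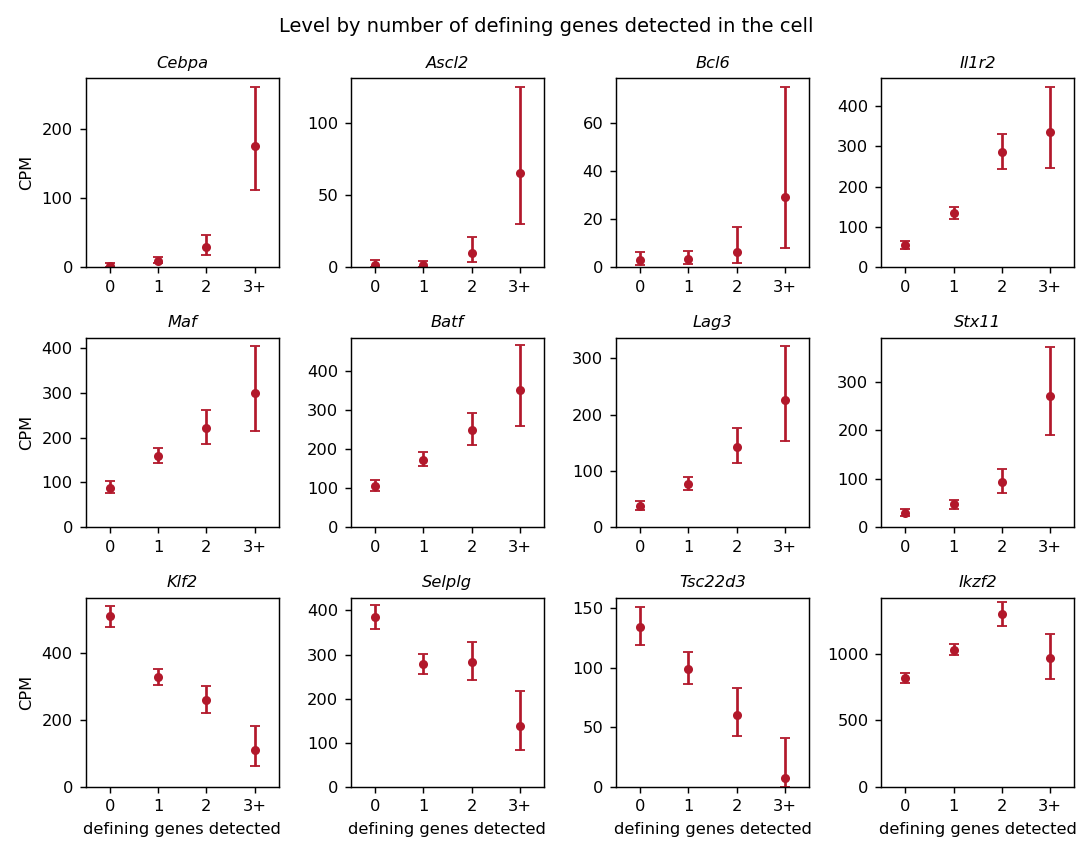
Level (y axis, CPM, with exact 95% Poisson intervals) of 12 genes by the number of defining genes detected in the cell (x axis): none and exactly 1 in matched cells, 2 and 3 or more in follicular-like cells. Cebpa, Ascl2, Bcl6 and Stx11 are highest at 3 or more, Klf2 and Tsc22d3 descend, and Ikzf2 peaks at 2.

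Cells with exactly 1 defining gene were then used as the comparison, with 690 matched cells. Against them 87 genes were higher (1.18%) and 124 lower (1.68%), and of the follicular programme 2 of 19 were higher, with a median log2 ratio of 0.30 against 0.06 over all genes. Il1r2 kept a ratio of 1.14 (0.88 to 1.40), Slc7a10 of 1.83 (1.11 to 2.56), Marcksl1 of 1.35 (0.94 to 1.77), Lag3 of 1.04 (0.69 to 1.39) and Batf of 0.63 (0.37 to 0.88), all past the rule. Maf, at 0.57 (0.30 to 0.83), and Tox, at 0.49 (0.26 to 0.72), did not pass. Nor did Twsg1, at 0.40 (-0.40 to 1.16), and Prelid2, at 0.36 (-0.38 to 1.07), which are among the 12 highest genes against cells with none. The cells with exactly 1 gene, set in turn against cells with none, had 158 genes higher (2.14%) and 18 lower (0.243%), with Maf, Batf, Tox, Tbc1d4 and Il1r2 among the higher.

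The follicular-like cells also differed among themselves by which defining gene they carried. These contrasts were picked after their values were seen, are not matched on depth and have intervals for counting error only. Cells with Sostdc1 (47 cells) had 353 CPM of Lag3 against 113 in the other follicular-like cells, a log2 ratio of 1.65 (1.09 to 2.19). They also had more Stx11, at 1.55 (0.92 to 2.17), Tbc1d4, at 0.94 (0.49 to 1.38), and Ascl2, at 1.92 (0.22 to 3.58). Klf2 was at -0.83 (-1.58 to -0.16) and Selplg at -0.92 (-1.65 to -0.26). Among the 5 genes, Sostdc1 thus marked the cells with the highest Lag3 and Stx11 ratios.

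Cells with Tox2 (121 cells) had the opposite sign for several genes. They had 303 CPM of Klf2 against 140.2, a log2 ratio of 1.11 (0.62 to 1.63), and less Marcksl1, at -1.39 (-2.06 to -0.75), Cd200, at -1.05 (-1.57 to -0.55), and Il1r2, at -0.64 (-1.03 to -0.24). Sh2d1a was at 0.74 (0.34 to 1.15). The 10 Il4 UMIs in them, of 11 in all, give a ratio of 3.0 (0.19 to 8.44).

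Cells with Cxcr5 (63 cells) had 417 CPM of Il1r2 against 242, a ratio of 0.78 (0.38 to 1.18), with Izumo1r at 0.55 (0.37 to 0.74), Batf at 0.54 (0.11 to 0.96) and Cd40lg at 1.32 (0.21 to 2.44). Cells with Angptl2 (63 cells) had Marcksl1 at 1.04 (0.42 to 1.65), Eea1 at 0.98 (0.46 to 1.48), Sh2d1a at -0.99 (-1.53 to -0.49) and Klf2 at -0.80 (-1.41 to -0.23). These contrasts are tied to those of Tox2 by the choice of members: 16 of the 63 Angptl2 cells also had Tox2, against 121 of all 230, so that opposite signs are not independent. Maf and Tox had intervals that included 0 for each of the 5 defining genes. Ikzf2 did so for all but Cxcr5, where it was at -0.26 (-0.47 to -0.04).

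**Figure D5:**
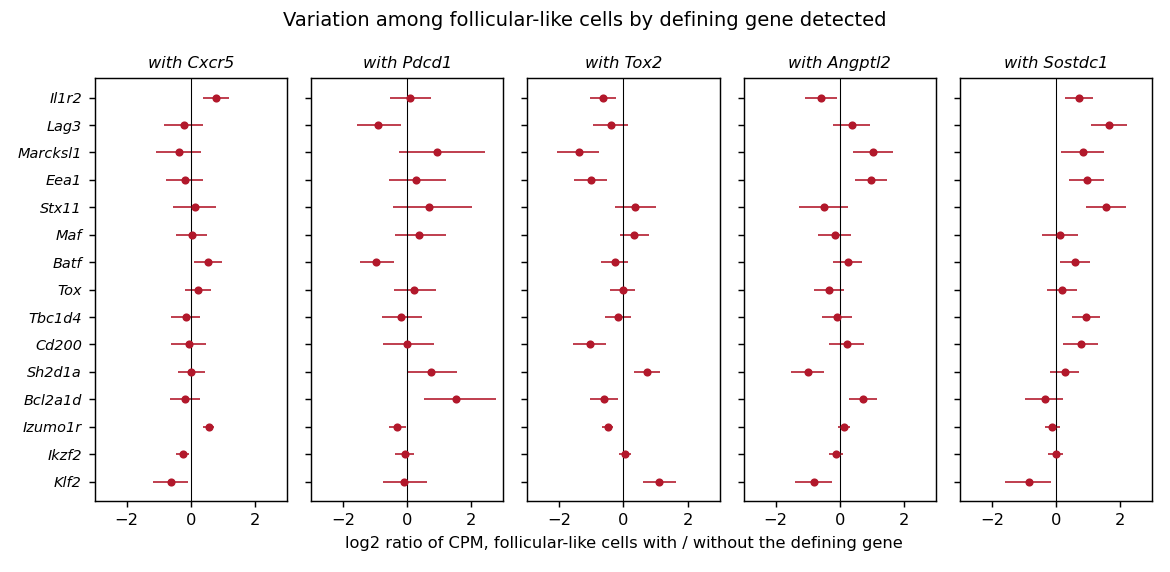
Log2 ratio of CPM (x axis) between follicular-like cells with and without each defining gene (5 panels) for 15 genes (y axis), with exact 95% intervals. Lag3 and Stx11 lie to the right for Sostdc1, and Marcksl1 and Klf2 have opposite signs for Tox2 and Angptl2, which few of these cells share.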

How the data were processed

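Per the labels' protocols, 10x Chromium 3′ (v2) libraries were made from sorted splenic Treg cells of 6 samples. The deposited table holds raw UMI counts of 14098 genes in 10685 cells (25389602 UMIs). The submitters' processing notes name mm10, FastQC, cutadapt, HISAT2, Cell Ranger and Seurat, without versions or roles. A second deposited table, of normalised values, was not used here, and 0 columns of samples outside the series were found. No cell could be tied to a sample, so the planned cKO against WT comparison and its replicate block were not run.

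The members and gene lists were chosen with earlier results of these data known. Cells passed at 200 or more genes, under 10% mitochondrial UMIs and 0 UMIs of Cd79a and Lyz2. Each follicular-like cell was matched to the 3 cells nearest in log10 UMIs within its set, without replacement. Counts were summed, scaled to 1000000, and compared as ratios with exact conditional binomial 95% intervals. A call needed 1.5-fold and the same direction in 6 of 6 sets, among genes with 200 or more UMIs. Since cells do not replicate a condition, no p-values were calculated. UMI counts set the precision, and intervals cover counting error only. Expected numbers of cells with several defining genes assumed independent detection within 10 strata of UMIs per set. Named genes were the 12 highest and 12 lowest ratios past the rule, the 4 tested members of each list furthest from 0, and Foxp3, Ikzf2, Bach2, Bcl6, Maf, Icos, Ascl2, Prdm1 and Il2ra. A few genes that the rule or a list includes are not reported here. Other names, such as Cebpa, were chosen after their values were seen. No doublet caller was run. Alternatives were leaving out each set, other matching, depths, filters, gene definitions and scalings. The comparison script was tested on simulated data. Python 3.11.15 was used with numpy 2.4.6, scipy 1.17.1, pandas 2.3.3 and matplotlib 3.10.9. Gene positions are from GENCODE M21.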

Additional observations from a re-analysis of the deposited data

How the results depend on the processing

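No paired analysis was possible because cells could not be tied to samples, and the comparison of cKO with WT and its block were not run for the same reason. Of 2785 values of 115 genes under 25 alternatives, 2531 lay within the interval of the reported value, 249 moved outside it and 5 changed the sign of a called gene. The called genes were Entpd1 (-0.84), Hspa1a (1.48) and Ifit1 (0.018) in the cells with 3 or more defining genes, and Hspa1a with 2 or more genes other than Pdcd1 (0.93) and with both Cxcr5 and Pdcd1 (2.09). Genes not called changed sign in 122 further values, of 37 genes, which are counted among the 2531 and 249. The settings at 50 or 500 UMIs and with an interval that excludes 0 change only which genes are tested or called. Their gene values equal the reported ones by construction and are counted among the 2531. The share of 2.26% was 0.852% after thinning, 1.85% without the deepest and other-lineage cells, and 2.18 to 2.43% leaving out each set. The 183 higher genes were 111 after thinning, 59 with 3 or more genes, 80 without Pdcd1 as a defining gene, 87 against cells with exactly 1 gene, 118 relative to the median gene and 64 in cells with Cxcr5 and Pdcd1. The 122 lower genes were 187 relative to the median gene, 67 at 500 or more UMIs and 78 with an interval that excludes 0. Leaving out a set, when a call needed 5 of 5 sets, gave 249 to 322 higher and 174 to 222 lower. With 1 nearest comparison cell 165 were higher and 97 lower, of which 94 and 35 were among the reported calls. The 7 higher follicular genes were 3 with 3 or more genes, 3 without Pdcd1, 2 against exactly 1 gene, 3 with Cxcr5 and Pdcd1, and 6 to 8 leaving out a set, with 0 lower throughout. The 6 lower opposing genes were 0 with matching on resting genes, 3 with 3 or more genes, 2 without Pdcd1, 2 against exactly 1 gene, 3 with Cxcr5 and Pdcd1 and 5 to 6 leaving out a set. The 1 higher opposing gene was 0 in 10 settings: unmatched, thinned, 3 or more genes, without Pdcd1, Cxcr5 or Sostdc1, against exactly 1 gene, without deep or other-lineage cells, under 5% mitochondrial UMIs, and with Cxcr5 and Pdcd1. It stayed at 1 leaving out each set. The 9 lower resting genes were 1 with matching on those genes, 2, 4, 4 and 4 with 3 or more genes, without Pdcd1, against exactly 1 gene and with Cxcr5 and Pdcd1, and 9 to 11 leaving out a set, with 0 higher. The 4 higher Treg identity genes were 2 unmatched, 1 matched on resting genes, 0 with 3 or more genes, 2 without Pdcd1, 1 without Cxcr5, 1 against exactly 1 gene, 2 at 500 UMIs, 1 with Cxcr5 and Pdcd1 and 3 to 5 leaving out a set. The 0 lower became 1 after thinning, 1 with matching on resting genes and 0 to 3 leaving out a set, with 3 without set 5. Settings with 3 or more genes, without Pdcd1, and with Cxcr5 and Pdcd1 hold 33, 58 and 51 cells, which limits their calls. The settings on the globin cells, the interval, equal weights, Sostdc1 and the pair Cxcr5 and Pdcd1 were chosen after seeing the data.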

Other observations

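Genes outside the lists also passed the rule in follicular-like cells and were picked for mention after their values were seen. Timp2, an inhibitor of metalloproteinases, had 162 against 50.4 CPM, a log2 ratio of 1.68 (1.30 to 2.07). Tnfsf11, which encodes the cytokine RANKL, had 109 against 40.9 CPM (1.41, 0.96 to 1.87), and Pdcd1lg2, which encodes the PD-1 ligand PD-L2, had 71.7 against 29.0 (1.31, 0.75 to 1.86). Igf1r, the receptor of insulin-like growth factor 1, had 47.8 against 17.6 (1.44, 0.74 to 2.14), and Cst7, a cysteine protease inhibitor, had 267 against 119 (1.17, 0.89 to 1.44). Ctsl, the lysosomal protease cathepsin L, lay under the limit of 200 UMIs, with 24 UMIs in 18 follicular-like cells and 6 UMIs in 6 matched cells, a log2 ratio of 3.48 (2.15 to 5.06), higher in 6 of 6 sets.

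Gm43291, an unnamed gene model whose position is not given here, had 30 UMIs in 21 follicular-like cells and 0 in the matched cells, at least 27.9-fold higher when set against 3 UMIs over the group. It was found in 36 passing cells in all, 58.3% of them follicular-like, and in 20 of the 21 cells beside Pdcd1, which was found in 203 of all 230. It was also found in 29 of the 80 cells with 3 or more Cd79a UMIs. Of B cell markers, Cd79b was found in 3 of these 21 follicular-like cells, against 26 of all 230, and Ms4a1 in 1, against 1 of all 230. Cd74 was found in 10, against 111 of all 230, and Ebf1 in 0. Cells with a Cd79a UMI had been left out by the choice of members. Cxcr5 was found in 7 of the 21, against 63 of all 230. The part of B cell RNA in this gene's level was not tested.

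Slc7a10, which passed the rule, and Cebpa, which did so only at the limit of 50 UMIs, are neighbours on chromosome 7, with 64457 bases from the end of Cebpa (35119293 to 35121928) to the start of Slc7a10 (35186385 to 35201114). Cebpa was found in 26 follicular-like cells, Slc7a10 in 28 and both in 8, and in 123, 212 and 28 of all passing cells. The genes around them did not pass: Cebpg had a log2 ratio of 0.54 (-0.20 to 1.25), Pepd -0.23 (-1.21 to 0.65) and Gpatch1 -0.23 (-1.70 to 1.03). Slc7a10 was at 10.5, 14.6, 45.4 and 80.4 CPM in cells with 0, 1, 2 and 3 or more defining genes.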
